A study of Mus musculus with 14 samples.

Results

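The genes described here encode the proteasome and its regulators: all genes of the count table whose symbol is Psm followed by a letter from a to g and a number. The pattern matched 49 symbols. Psmb11, the beta subunit of the thymus, with 2 counts summed over all libraries, and Psma8, the alpha subunit of the testis, with 94, fell below the minimum of 100 summed counts, which left 47 of the 23337 genes in the table. Of these, 46 belong to the proteasome. Psmc3ip matches by its symbol but encodes a factor of meiotic recombination, and it is counted apart from the classes.

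Poly(A) RNA was sequenced from cardiomyocytes of 4-week-old Rosa-Cas9GFP mice, a strain with Cas9 and GFP in the Rosa gene, after injection of an adeno-associated virus (AAV) at postnatal day 1. The KO group (n = 7) received AAV-Ryr2gRNA, a virus named for a guide RNA against Ryr2, and the Ctrl group (n = 7) received AAV-Cre. Hearts were dissociated on a Langendorff apparatus, and cardiomyocytes were then sorted by FACS. The labels do not state whether the guide virus also carried Cre, whether the replicates are separate animals, or what share of the sorted cells was edited, so effects of guide and vector cannot be told apart and p-values cover the spread among these libraries, which may be partly technical. Ryr2, the calcium release channel of the sarcoplasmic reticulum, had 225, 324 and 371 CPM in KO (lowest, median and highest of 7 libraries) and 602, 649 and 763 CPM in Ctrl, a log2 fold change of -1.13 (SE 0.0977, adjusted p = 3.3e-07, edgeR's quasi-likelihood test). CPM are read counts relative to library size, scaled by TMM, and every log2 fold change below is KO minus Ctrl.

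Total counts ranged from 5689335 to 13165662 per library, and the proteasome genes took 0.558 to 0.631% of them. Both groups contain 2 libraries (replicates 4 and 5) with library indices 7 to 10, which stood apart on the second principal component (24.3% of the variance). The labels name no batch for these 4 libraries, so results were also computed without and within them. All 8 cardiomyocyte markers were detected, with a summed level of 70288, 86847 and 95832 CPM in KO (lowest, median, highest) and 88468, 98821 and 103820 CPM in Ctrl. Of the 8, 5 were called lower (Myl2, Myl3, Tnnt2, Tnni3 and Pln), beside 13.7% of all 11170 tested genes. Myh6 (log2 fold change -0.061, adjusted p = 0.66, edgeR), Actn2 (-0.050, 0.63) and Ttn (-0.0030, 0.99) were not called. Macrophage markers summed to 63.0, 89.9 and 454 CPM in KO and 25.7, 38.5 and 123 CPM in Ctrl. Of the 13 listed, none was at 0 throughout a group and 10 were tested. Of the 10, 3 were called higher (Lyz2, Emr1 and C1qb), beside 14.5% of all tested genes. Their sum was highest in the libraries with indices 7 to 10. Lymphocyte markers stayed between 0.132 and 0.475 CPM in sum in KO and between 0.247 and 1.85 CPM in Ctrl, with Cd3e at 0 in every KO library and none of the 6 tested. None of the 5 endothelial, 5 fibroblast or 3 pericyte markers was called, but their sums too were highest in the libraries with indices 7 to 10. In these bulk samples, fewer cells of a type and less RNA per cell cannot be told apart.

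The proteasome degrades proteins tagged with ubiquitin. Its 20S core is a barrel of outer rings of alpha subunits (Psma genes), which gate the entrance, and inner rings of beta subunits (Psmb genes), some of which cut peptide bonds. The 19S cap recognises the ubiquitin chain and removes it, and its ring of ATPases (Psmc genes) unfolds the substrate and feeds it into the core. Other activators (Psme genes) open the core without ubiquitin, dedicated chaperones (Psmg genes and some Psmd genes) assemble it, and interferon-inducible beta subunits (Psmb8, Psmb9 and Psmb10) replace the standard catalytic ones in the immunoproteasome, which favours peptides for antigen presentation. In heart muscle, proteasomes turn over sarcomeric and other proteins, and their activity is studied in hypertrophy and heart failure.

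Per length of the gene model, the standard core had the highest class median in Ctrl (157 RPKM), followed by the cap (95.6). Next came the activators and inhibitor (57.4), the core assembly chaperones (21.8) and the immunoproteasome (4.62). The classes overlapped: the chaperone Psmg2, at 46.5 ± 5.75 RPKM, lay beside the core subunit Psma5. RPKM is CPM per kilobase of exon. In Ctrl, Psmb2 averaged 231 ± 21.1 RPKM (SD, n = 7), followed by Psma7 at 224 ± 18.6, Psmb6 at 221 ± 16.2 and Psmc3 at 205 ± 10.9, and the first 3 did not differ from one another beyond their spread. The 14 standard core subunits ranged 5.04-fold, with Psma5 the lowest at 45.9 ± 3.74 RPKM. The 6 ATPases ranged 2.28-fold, although each is present once per cap. Psmb10 averaged 26.0 ± 1.82 RPKM, Psmb8 4.62 ± 1.57 RPKM and Psmb9 2.05 ± 0.883 RPKM, the lowest of all 47. The coefficient of variation among Ctrl libraries had a median of 8.08% over the 47 genes, but it was 34.0% for Psmb8 and 43.0% for Psmb9.

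**Figure D1:**
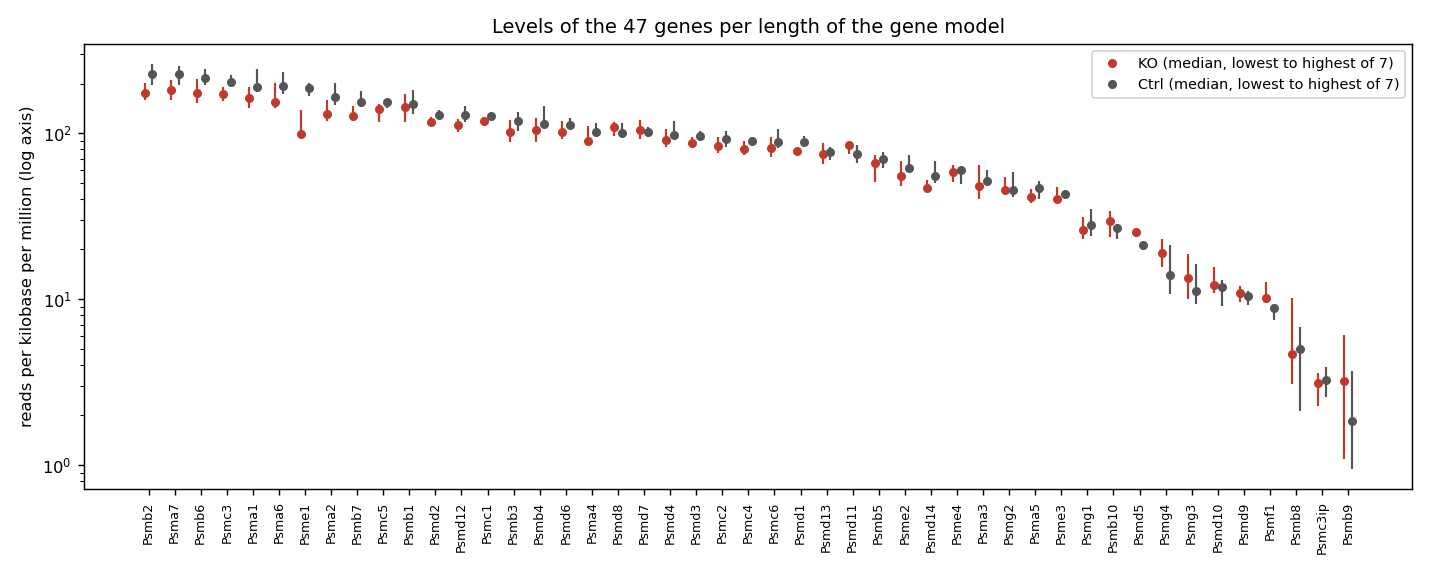
Level of each of the 47 genes per length of the gene model, in RPKM on a log axis, for KO (red) and Ctrl (grey). Points are medians and lines run from the lowest to the highest of 7 libraries, with genes ordered by their Ctrl mean: core and cap subunits fill most of the left side, and Psmb9, with a Ctrl mean of 2.05, stands at the far right.

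All 47 genes passed the filter on low counts, and edgeR's quasi-likelihood test called 16 lower and 3 higher in KO at an adjusted p under 0.05. The 16 lower genes are 34.0% of the 47, beside 13.7% of all 11170 tested genes, and the 3 higher ones (Psmd5, Psmd11 and Psmf1) are 6.38%, beside 14.5%. The median log2 fold change was -0.13 over the 47 genes and 0.01 over all tested genes, and 33 of the 47 lay below 0. The changes were small: under TMM scaling only Psme1 of the 19 called genes moved by more than 0.4 on the log2 scale. The KO and Ctrl groups did not overlap for 5 genes (Psmc3, Psmd1 and Psme1 below, Psmd5 and Psmf1 above), 10.6% of the 47, which is near the 10.5% of all tested genes.

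These counts move with the scaling. With library sizes set by total counts alone, 4 members were called lower and 8 higher, beside 7.63% lower and 27.4% higher over all genes, and the median of all genes shifted to 0.15. Relative to the median of all genes, the members' median was -0.15 under that scaling and -0.14 under TMM. Without library indices 7 to 10 (n = 5 per group), 11 members were lower and 1 was higher, beside 11.6% and 12.5% of all genes. Within those indices (n = 2 per group), 6 were lower and 0 higher, beside 6.59% and 5.84%. Psma2, Psmb2, Psmb7 and Psme1 were called lower in the main test and under all 22 other settings.

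**Figure D2:**
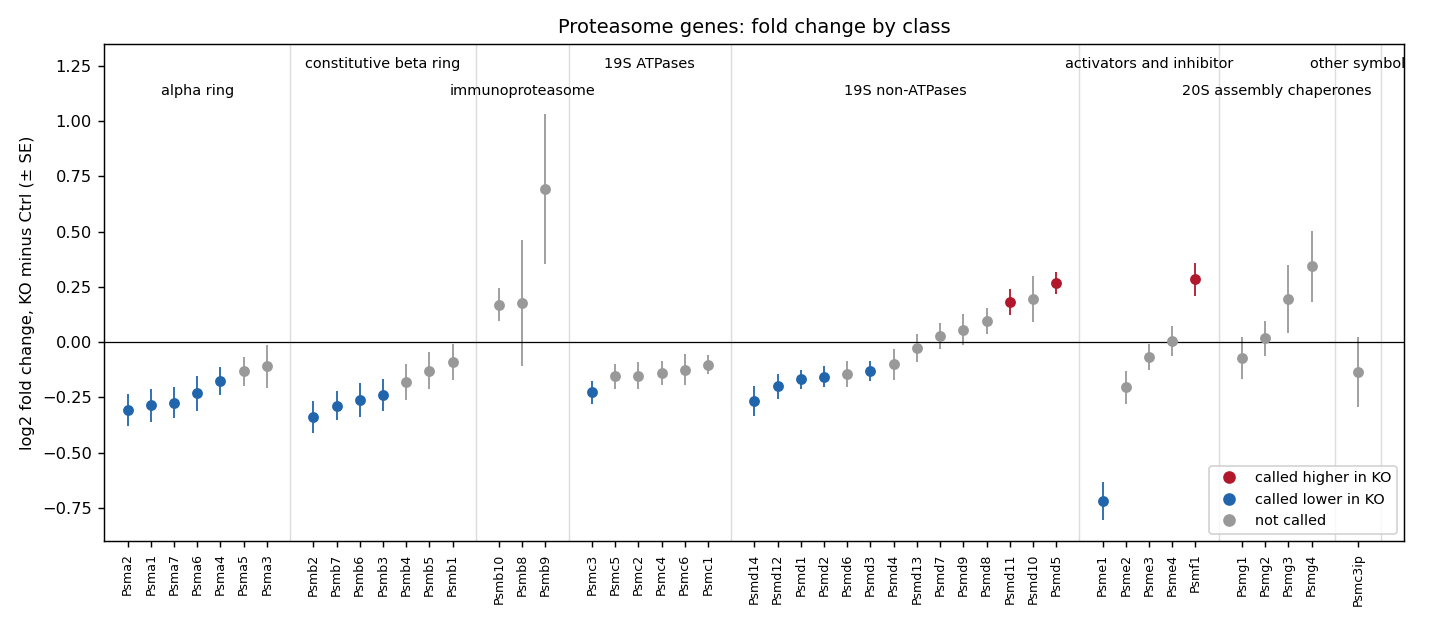
Log2 fold change of each gene, KO minus Ctrl, by class, with SE bars from edgeR's quasi-likelihood fit on 7 libraries per group. Blue points were called lower, red higher and grey not called: all 14 standard core subunits lie below 0 under TMM scaling (3 of them lie above 0 with total counts), and Psme1 at -0.72 is the lowest point.

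The alpha ring was lower in KO for most of its subunits. Of 7 genes, 5 were called lower (Psma1, Psma2, Psma4, Psma6 and Psma7) and 0 higher, with a median log2 fold change of -0.23. The 5 are 71.4%, beside 13.7% called lower among all tested genes. Psma2, an alpha subunit at mm10 chr13:14613242-14625673, had 112, 124 and 151 CPM in KO and 140, 157 and 190 CPM in Ctrl (lowest, median, highest). Its groups overlapped only in the range between the lowest Ctrl and the highest KO library. By edgeR's quasi-likelihood test it was lower by a log2 fold change of -0.31 (SE 0.0718, adjusted p = 0.0040). Psma1 had 178, 205 and 238 CPM in KO and 222, 239 and 306 CPM in Ctrl, with a log2 fold change of -0.29 (adjusted p = 0.0075, edgeR). Psma7 had 141, 160 and 185 CPM in KO and 172, 200 and 225 CPM in Ctrl, with a log2 fold change of -0.27 (adjusted p = 0.0071, edgeR). In each of these genes the groups overlapped although the medians were well apart. Psma3, the subunit with the smallest change, had 56.8, 68.3 and 91.1 CPM in KO and 70.7, 73.8 and 85.6 CPM in Ctrl (-0.11, adjusted p = 0.45, edgeR), with a KO library as the highest of all 14. The calls of Psma4 (-0.18) and Psma6 (-0.23) were the least stable of the ring: of the 14 fits that left out 1 library, Psma4 was called in 3 (without KO7, Ctrl2 or Ctrl4) and Psma6 in 5 (without KO3, KO7, Ctrl3, Ctrl4 or Ctrl5).

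The standard beta ring moved in the same direction, and its catalytic subunits were not alike in passing the test. Of 7 genes, 4 were called lower (Psmb2, Psmb3, Psmb6 and Psmb7) and 0 higher, with a median log2 fold change of -0.24. The 4 are 57.1%, beside 13.7% called lower among all tested genes. Psmb2, a subunit without catalytic activity at mm10 chr4:126677643-126709715, had 135, 149 and 171 CPM in KO and 165, 194 and 221 CPM in Ctrl. Its log2 fold change of -0.34 (SE 0.0705, adjusted p = 0.0016, edgeR) was the lowest of the whole core. Psmb7, the subunit with trypsin-like activity, had 115, 124 and 142 CPM in KO and 139, 151 and 174 CPM in Ctrl (-0.29, SE 0.0658, adjusted p = 0.0034, edgeR). Psmb6, the subunit with caspase-like activity, had 158, 181 and 220 CPM in KO and 203, 223 and 253 CPM in Ctrl (-0.26, SE 0.0772, adjusted p = 0.017, edgeR). For both, only the top of the KO range reached into the Ctrl range. Psmb5, the subunit with chymotrypsin-like activity, had 44.6, 58.2 and 65.0 CPM in KO and 54.2, 60.9 and 67.6 CPM in Ctrl, and its log2 fold change of -0.13 (SE 0.0842, adjusted p = 0.28, edgeR) did not pass. Psmb1, at 122, 150 and 179 CPM in KO and 136, 157 and 189 CPM in Ctrl, was the least changed of the ring (-0.09, adjusted p = 0.45, edgeR), and Psmb4 lay at -0.18 (adjusted p = 0.11). Without KO7, Psmb4 passed (-0.23, adjusted p = 0.040). Whether the subunits differ in their change was not tested.

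Over alpha and beta rings together, 9 of 14 genes were called lower (64.3%) and 0 higher, beside 13.7% and 14.5% of all tested genes. All 14 had a log2 fold change below 0 under TMM scaling, between -0.34 and -0.09. Psma3, Psmb1 and Psmb5 lay above 0 with total counts. With total counts 3 of the 14 were called lower, beside 7.63% of all genes. The median was then -0.10, which is -0.25 relative to the median of all genes under both scalings. Without library indices 7 to 10, 7 were lower, and within them 5 were, beside 11.6% and 6.59% of all genes. The mean log2 level of the 14 genes, set to 0 for the Ctrl mean, was -0.43, -0.26 and 0.01 in KO (lowest, median, highest) and -0.16, -0.01 and 0.20 in Ctrl. KO5 was the lowest and KO7 the highest of the KO libraries, and Ctrl4 the lowest and Ctrl7 the highest of the Ctrl libraries, so that 4 of 7 KO libraries lay below every Ctrl library. Without KO7, 10 core genes were called lower.

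**Figure D3:**
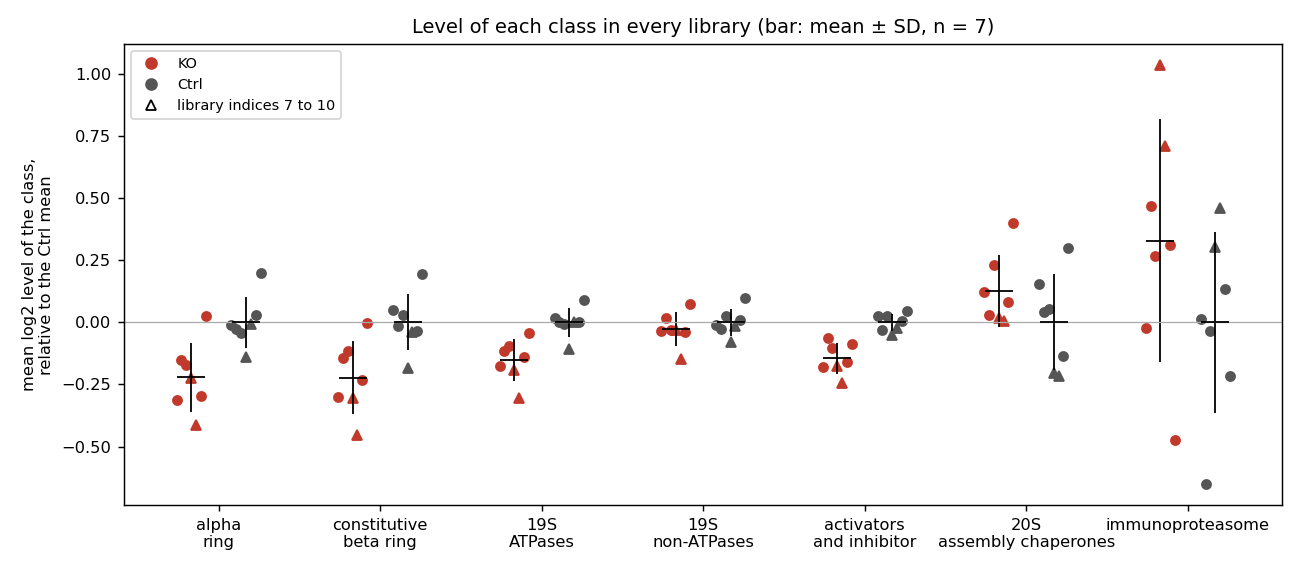
Mean log2 level of each class in every library, relative to the Ctrl mean of that class, for KO (red, left) and Ctrl (grey, right). Bars are mean ± SD (n = 7) and triangles mark library indices 7 to 10: both core rings sit lower in KO with KO7 (0.02 in the alpha ring) at the top of its group, and the immunoproteasome reaches 1.03 in KO4.

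Promoter windows of the members were searched for the core of the antioxidant response element, TGACNNNGC on either strand, because elements of this kind are bound by NRF1, which induces proteasome genes when proteasome activity falls, and by NRF2, which acts under oxidative stress. Windows of 250 bases before to 50 after each start were taken from RefSeq (GRCm38.p6), which matched 40 of the 47 genes. The letters occurred in 6 of the 40 (15.0%; Psmb5, Psmb6, Psmc6, Psmd12, Psmd9 and Psme4), beside 14% of 27025 genes with a window, so they were about as frequent as elsewhere. The matches in 4 of these genes, chosen because they carry catalytic, ATPase and lid functions, are printed with up to 10 flanking bases on the strand of the gene, with the motif or its reverse complement in capitals.
Psmb5 (chr14:54618024-54618052, minus strand): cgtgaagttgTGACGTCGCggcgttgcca
Psmb6 (chr11:70525338-70525366, plus strand): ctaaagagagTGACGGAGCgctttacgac
Psmc6 (chr14:45329587-45329615, plus strand): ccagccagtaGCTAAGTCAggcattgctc
Psmd12 (chr11:107479278-107479299, plus strand): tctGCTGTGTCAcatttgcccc
Of these 4 genes, Psmb6 and Psmd12 were called lower and Psmb5 and Psmc6 were not called. The GC box GGGCGG, on either strand, occurred in 23 of the 40 windows (57.5%), beside 38.2% of the 27025 genes with a window. Those 27025 were not limited to the genes tested here. The GC box may overlap the other motifs, and a match describes letters and not a bound site.

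The 19S ATPases, which form the ring that unfolds substrates, all had log2 fold changes below 0 under TMM scaling, between -0.23 and -0.10. Only 1 of 6 passed the test (16.7%, beside 13.7% called lower among all tested genes). With total counts Psmc1 and Psmc6 lay above 0. Psmc3, at mm10 chr2:91054016-91059438, had 258, 283 and 311 CPM in KO and 313, 335 and 366 CPM in Ctrl, so that every KO library lay below every Ctrl library. The fitted change was -0.23 on the log2 scale (SE 0.0522, adjusted p = 0.0035, edgeR's quasi-likelihood test). The call was lost with total counts (-0.09, adjusted p = 0.093) and within library indices 7 to 10 (-0.29, 0.069). The others were close to the threshold or short of it: Psmc5 lay at -0.15 (adjusted p = 0.054), Psmc4 at -0.14 (0.064), Psmc2 at -0.15 (0.079), Psmc1 at -0.10 (0.086) and Psmc6 at -0.12 (0.20). DESeq2, run on the same counts, also called Psmc1, Psmc4 and Psmc5 lower. Leaving out KO7 or Ctrl4 brought Psmc2, Psmc4 and Psmc5 under the threshold (adjusted p between 0.036 and 0.049), leaving out KO3 did so for Psmc4 and Psmc5, and leaving out KO6 for Psmc5.

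The non-ATPase genes of the cap moved both ways. Of 14 genes, 5 were called lower (Psmd1, Psmd2, Psmd3, Psmd12 and Psmd14) and 2 higher (Psmd5 and Psmd11), with a median of -0.06. These are 35.7% lower and 14.3% higher, beside 13.7% and 14.5% of all tested genes, so the share called higher was near the background. With total counts 0 were called lower and 5 higher (Psmd5, Psmd7, Psmd8, Psmd10 and Psmd11), beside 7.63% and 27.4% of all genes. The class median was then 0.07, against 0.15 over all genes. Psmd14, the deubiquitinase that removes the ubiquitin chain as the substrate enters, had 69.1, 71.8 and 80.6 CPM in KO and 77.9, 85.1 and 104 CPM in Ctrl. It overlapped Ctrl only at its top, and it changed by -0.27 on the log2 scale (SE 0.0688, adjusted p = 0.0078, edgeR). Psmd1, a large scaffold subunit of the base, had 248, 256 and 266 CPM in KO and 268, 288 and 313 CPM in Ctrl, without overlap (-0.17, SE 0.0442, adjusted p = 0.0085, edgeR). Psmd2, the other large scaffold, lay at -0.16 (adjusted p = 0.023), and the lid subunits Psmd12 and Psmd3 at -0.20 (0.016) and -0.13 (0.047). Without library indices 7 to 10, Psmd2 (adjusted p = 0.066) and Psmd12 (0.054) were no longer called, and Psmd2 was not called without the filter on low counts (0.069). The Psmd3 call held in 3 of 14 fits that left out 1 library (without KO2, KO3 or Ctrl5). Psmd6, another lid subunit, lay at -0.14 (adjusted p = 0.074) and, among the fits that left out 1 library, passed without KO7 (-0.18, 0.018). Psmd4, a receptor for ubiquitin chains, lay at -0.10 (adjusted p = 0.33) and was not called.

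Of the cap genes, Psmd5 and Psmd11 were called higher. Psmd5, at mm10 chr2:34852089-34870962, encodes a chaperone that holds the ATPase base during assembly and is absent from the finished cap. It had 48.7, 51.8 and 54.8 CPM in KO and 40.3, 43.1 and 45.1 CPM in Ctrl, and all 7 KO libraries lay above all 7 Ctrl libraries. Psmd5 changed by 0.27 on the log2 scale (SE 0.0507, adjusted p = 7.5e-04, edgeR), by 0.27 without library indices 7 to 10 (adjusted p = 0.0079) and by 0.21 within them (0.31). Psmd11, a lid subunit that also contacts the alpha ring, had 131, 149 and 157 CPM in KO and 115, 132 and 149 CPM in Ctrl, with overlapping groups (0.18, SE 0.0580, adjusted p = 0.026, edgeR). The Psmd11 call was lost on leaving out Ctrl3, Ctrl4 or Ctrl6 (adjusted p between 0.052 and 0.059), and without library indices 7 to 10 (adjusted p = 0.11). The other base chaperones, Psmd9 and Psmd10, lay at 0.05 and 0.20 (adjusted p = 0.61 and 0.19).

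The chaperones of core assembly, Psmg1 to Psmg4, gave 0 calls among 4 genes, with a median of 0.11. Psmg1 and Psmg2, which pair to build the alpha ring, lay at -0.07 and 0.02. Psmg3 and Psmg4, which form the other pair, lay at 0.19 (adjusted p = 0.39) and 0.34 (0.12, edgeR). Psmg4 had 8.47, 10.3 and 12.5 CPM in KO and 5.84, 7.57 and 11.5 CPM in Ctrl, and the groups overlapped. Without Ctrl2 it passed (0.44, adjusted p = 0.045). Taking the 7 assembly factors Psmg1 to Psmg4, Psmd5, Psmd9 and Psmd10 as a group, 6 had log2 fold changes above 0 (median 0.19). Of the 7, 1 was called higher (Psmd5), which is 14.3%, near the 14.5% of all tested genes. The difference from the structural subunits was not tested.

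Psme1 had the fitted change farthest from 0 among the 19 called genes. Psme1 and Psme2 encode the alpha and beta chains of the PA28 ring, an interferon-inducible activator that opens the core without ATP or ubiquitin. Psme1 (mm10 chr14:55578494-55581527) had 96.4, 97.0 and 136 CPM in KO and 163, 184 and 196 CPM in Ctrl. Of the KO libraries, 4 lay between 96.4 and 97.0 CPM and the other 3 between 121 and 136 CPM. All 7 KO libraries lay below all 7 Ctrl libraries, and the KO mean was 60.7% of the Ctrl mean. On the log2 scale the change was -0.72 (SE 0.0857, adjusted p = 1.1e-05, edgeR's quasi-likelihood test). It was -0.67 without library indices 7 to 10 and -0.90 within them, and both passed. Only 4 exonic bases of Psme1 overlap another gene model, Fam158a.

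Its partner changed less. Psme2 (mm10 chr14:55587440-55591101), which lies 5912 bases from Psme1 on the opposite strand, had 47, 53.7 and 66.1 CPM in KO and 58.1, 60.7 and 72.4 CPM in Ctrl. The groups overlapped, and the log2 fold change of -0.21 (SE 0.0749) fell just short of the threshold (adjusted p = 0.050002, edgeR), while DESeq2 called it, as did edgeR without KO3 (adjusted p = 0.012) or Ctrl2 (0.045). As a ratio of levels per length, Psme1 over Psme2 was 1.69, 2.05 and 2.36 in KO and 2.60, 2.85 and 3.12 in Ctrl, so every KO library lay below every Ctrl library. No test of the difference between the 2 genes was run. Because an interferon-stimulated response element would be a feature of interferon-inducible genes, the windows were searched for its core, GAAA followed by 2 bases of any kind and GAAA again, on either strand. It occurred in 5 of 40 windows (12.5%; Psmb3, Psmd4, Psmd9, Psme1 and Psmg4), beside 3.99% of the 27025 genes with a window, tested here or not. The match in Psme1 lies just after the RefSeq start and is printed on the plus strand with the reverse complement of the motif in capitals.
Psme1 (chr14:55578493-55578522, plus strand): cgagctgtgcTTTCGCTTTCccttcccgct
The windows of Psme2, Psmb8, Psmb9 and Psmb10 did not hold these letters. The other interferon motif searched was the core of the gamma-activated site, TTCNNNGAA on either strand. It occurred in 3 of 40 windows (7.5%; Psmb8, Psmd2 and Psmg1), beside 9.55% of the genes with a window. Of the genes with the core of the interferon-stimulated response element, Psme1 and Psmb3 were called lower and Psmd4, Psmd9 and Psmg4 were not called. Of those with the core of the gamma-activated site, Psmd2 was called lower and Psmb8 and Psmg1 were not called.

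Of the remaining activators and the inhibitor, Psmf1 was called higher and Psme3 and Psme4 were not called. Psme3, the nuclear relative of PA28, had 99.3, 105 and 124 CPM in KO and 109, 114 and 119 CPM in Ctrl (-0.07, adjusted p = 0.44, edgeR). Psme4, which encodes the large nuclear activator PA200, had 327, 376 and 414 CPM in KO and 318, 387 and 400 CPM in Ctrl (0.00, adjusted p = 0.97, edgeR). For Psme4 the ranges almost coincided, whereas for Psme3 5 KO libraries lay below and 2 above the Ctrl range. Psmf1 (mm10 chr2:151716062-151741293) encodes PI31, a protein that binds the core and inhibits it in the test tube. It had 33.7, 35.9 and 44.9 CPM in KO and 26.5, 31.3 and 33.2 CPM in Ctrl, and the groups did not overlap. Its change on the log2 scale was 0.28 (SE 0.0758, adjusted p = 0.0096, edgeR), and it was 0.24 without library indices 7 to 10 (adjusted p = 0.072) and 0.35 within them (0.15).

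**Figure D4:**
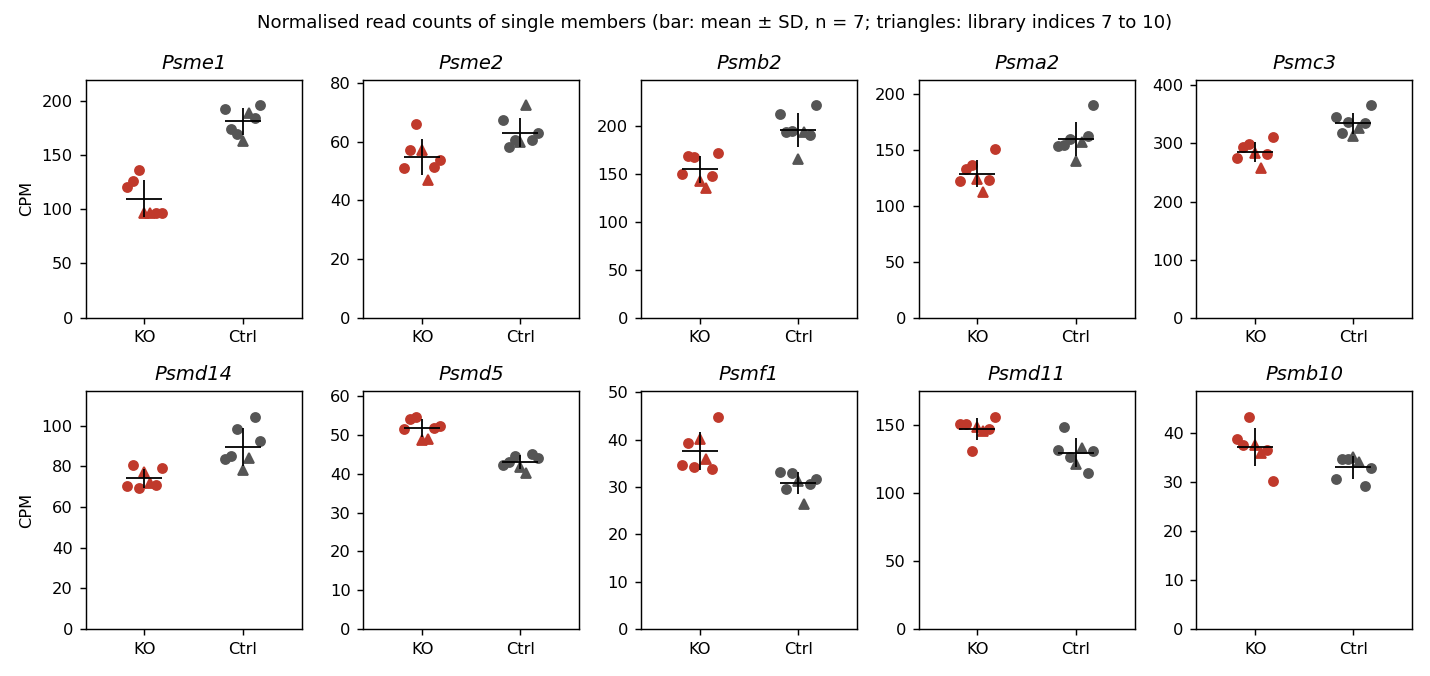
CPM of 10 members in every library, with KO (red) left of Ctrl (grey), mean ± SD bars (n = 7) and triangles for library indices 7 to 10. Psme1, Psmc3, Psmd5 and Psmf1 show no overlap between the groups, whereas Psme2, Psmb2, Psma2, Psmd14, Psmd11 and Psmb10 do overlap.

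None of the 3 immunoproteasome genes was called in the main test, and the outcome for Psmb9 and Psmb10 changed with the setting. Psmb10, the inducible counterpart of Psmb7, had 30.3, 37.6 and 43.4 CPM in KO and 29.2, 34.2 and 35.2 CPM in Ctrl (0.17, SE 0.0747, adjusted p = 0.10, edgeR). Psmb8, the counterpart of Psmb5, had 3.78, 5.74 and 12.5 CPM in KO and 2.61, 6.09 and 8.28 CPM in Ctrl (0.18, SE 0.286, adjusted p = 0.70, edgeR). Psmb9, the counterpart of Psmb6, had 0.878, 2.58 and 4.91 CPM in KO and 0.767, 1.48 and 2.99 CPM in Ctrl (0.69, SE 0.340, adjusted p = 0.15, edgeR). All the groups overlapped, and the mean log2 level of the 3 genes was highest in KO4 (1.03) and KO5 (0.71) relative to the Ctrl mean. Psmb8 (12.5 and 8.70 CPM) and Psmb9 (4.91 and 3.75 CPM) were highest in KO4 and KO5. Psmb10 was highest in KO3 (43.4 CPM), with 37.7 CPM in KO4 and 36.0 CPM in KO5. KO4 and KO5 also held the highest macrophage marker sums of KO (454 and 300 CPM), and Ctrl4 and Ctrl5 those of Ctrl (119 and 123 CPM). In the same order, KO4, KO5, Ctrl4 and Ctrl5 also held the highest endothelial sums (531, 484, 435 and 471 CPM). The same held for fibroblast sums (575, 515, 275 and 290 CPM) and pericyte sums (151, 135, 109 and 119 CPM). The part of any of these cell types in the immunoproteasome values was not tested. Without KO7, Psmb10 (0.22, adjusted p = 0.023) and Psmb9 (0.87, 0.037) were called higher by edgeR. Psmb9 was also called with a term for library indices 7 to 10 in the model (0.68, adjusted p = 0.044). Psmb10 was called with total counts (0.30, 0.0070), a scaling under which 27.4% of all tested genes were called higher. For Psmb8 the log2 fold change was -0.13 without library indices 7 to 10 and 0.58 within them.

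Within a library, the inducible subunits can be set against the standard ones that they replace, as ratios of levels per length. Psmb10 was 16.3, 23.3 and 24.5% of Psmb7 in KO (lowest, median, highest) and 14.4, 15.5 and 19.3% in Ctrl. In 6 of 7 KO libraries the ratio exceeded every Ctrl library, and KO7 lay within the Ctrl range. Psmb9 was 0.513, 1.74 and 3.65% of Psmb6 in KO and 0.445, 0.843 and 1.73% in Ctrl, with 4 of 7 KO libraries above every Ctrl library. Psmb8 was 4.14, 6.61 and 16.4% of Psmb5 in KO and 3.14, 6.47 and 8.97% in Ctrl, and the groups overlapped widely. These are differences in a ratio whose denominators, Psmb7 and Psmb6, were themselves called lower, and no p is given for them.

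**Figure D5:**
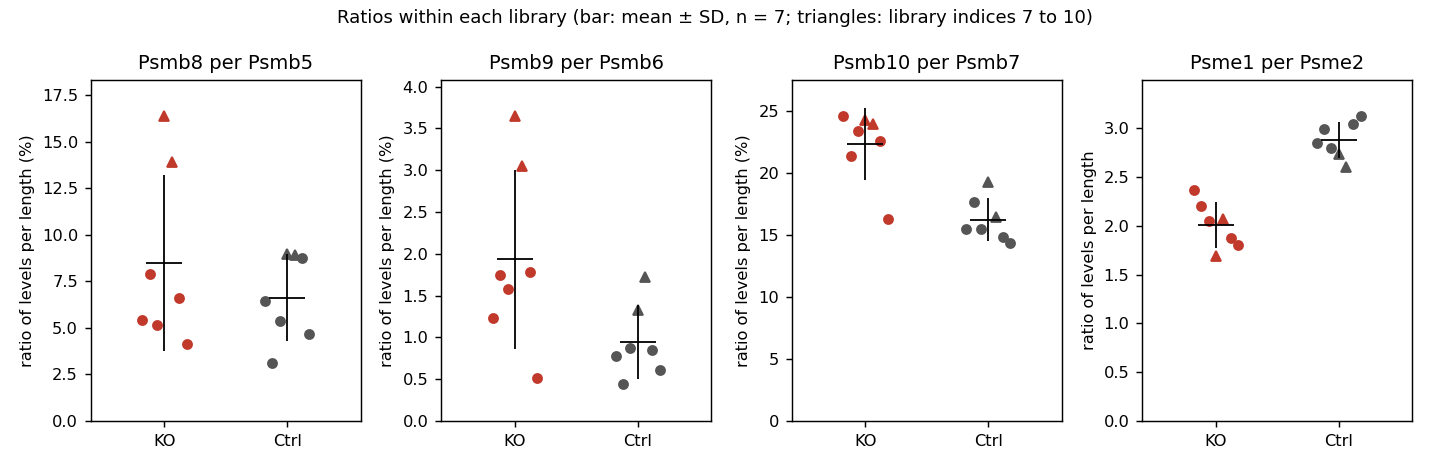
Ratios within each library of levels per length, for the inducible over the standard beta subunits (in percent) and for Psme1 over Psme2, with KO (red) left of Ctrl (grey), mean ± SD bars (n = 7) and triangles for library indices 7 to 10. All KO values of Psme1 over Psme2 (1.69 to 2.36) lie below the Ctrl values (2.60 to 3.12), whereas the 3 inducible ratios overlap.

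Psmb8 and Psmb9 lie beside the peptide transporter genes Tap1 and Tap2 in the major histocompatibility region, with Psmb9 at mm10 chr17:34182099-34187330 and Tap1 at chr17:34187556-34197225. Psmb9 and Tap1 are transcribed away from each other, and 225 bases lie between their gene models. The stretch is printed because both genes start from it, on the minus strand (GRCm38.p6, RefSeq), which is that of Psmb9, with its GC box in capitals.
Psmb9-Tap1 gap (chr17:34187331-34187555, minus strand): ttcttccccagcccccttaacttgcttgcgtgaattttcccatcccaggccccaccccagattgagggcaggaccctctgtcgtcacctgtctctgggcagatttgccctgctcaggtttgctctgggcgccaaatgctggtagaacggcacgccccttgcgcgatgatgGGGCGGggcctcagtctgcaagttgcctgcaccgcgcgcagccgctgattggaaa
Tap1 had 5.09, 8.07 and 11.8 CPM in KO and 2.42, 4.14 and 5.90 CPM in Ctrl, and it was called higher (0.999, SE 0.243, adjusted p = 0.0052, edgeR), with overlapping groups. Psmb9, on the other side of the same stretch, had a log2 fold change of 0.69 that did not pass, and no test between these 2 genes was run. Of 11 tested genes of antigen presentation and the interferon-gamma response, 4 were called higher (H2-K1 at 1.09, B2m at 1.002, Tap1 at 0.999, Tapbp at 0.31) and 0 lower, beside 14.5% higher and 13.7% lower among all tested genes. B2m had 72.3, 95.8 and 127 CPM in KO and 34.7, 45.4 and 66.8 CPM in Ctrl, and its groups did not overlap. The macrophage marker sums also had a higher median in KO (89.9 CPM) than in Ctrl (38.5 CPM). Among the KO libraries, KO4 was highest in both that sum (454 CPM) and B2m (127 CPM). KO7, the lowest in that sum (63.0 CPM), had B2m at the KO median (95.8 CPM). The part of macrophages in these values was not tested.

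Other genes that act with the proteasome were described from lists of the pathway. None of 11 partners outside the Psm names was called, and their median was -0.08. Among them, the maturation factor Pomp had a log2 fold change of -0.06 and the ubiquitin receptor Adrm1 one of -0.04. Of 8 genes of NRF1 and NRF2 control, 1 was called higher and 0 lower, near the 14.5% called higher among all tested genes. This was Mafg, a small Maf protein that pairs with both factors, at 23.2, 30.3 and 34.1 CPM in KO and 17.4, 20.2 and 23.9 CPM in Ctrl (0.52, SE 0.0929, adjusted p = 4.4e-04, edgeR). Nfe2l1, which encodes NRF1, had 454, 585 and 649 CPM in KO and 411, 501 and 552 CPM in Ctrl (0.22, adjusted p = 0.056, edgeR), and Nfe2l2, which encodes NRF2, lay at 0.30 (adjusted p = 0.11). Both had overlapping groups and did not pass.

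Upstream of the proteasome, 2 of 6 genes for ubiquitin and its activating enzymes were called higher, beside 14.5% of all tested genes. These were Ubb, which encodes ubiquitin, at 0.37 (adjusted p = 0.037) and the ubiquitin-ribosomal fusion gene Rps27a at 0.49 (0.043, edgeR). Of 11 shuttle and VCP complex genes, 3 were called lower, beside 13.7% of all tested genes: Faf1 at -0.20 (adjusted p = 0.011), Ufd1l at -0.20 (0.038) and Ubqln4 at -0.17 (0.040, edgeR). Vcp, the segregase that extracts ubiquitinated proteins, lay at 0.11 (adjusted p = 0.091). Of 10 ubiquitin ligases of muscle, 2 were called higher (14.5% of all tested genes were), Trim54 at 0.29 (adjusted p = 0.0086) and Nedd4 at 0.17 (0.017, edgeR). The atrophy ligases Trim63 and Fbxo32 lay at -0.14 and 0.09 and were not called.

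Among the 47 genes, those with higher levels per length tended to have lower fold changes. Spearman's rho between the mean RPKM over all libraries and the log2 fold change was -0.766 over the 47 members and -0.213 over all 11170 tested genes. It is given as a description across genes, which share libraries and scaling and are not independent. Psmc3ip, the gene that shares only its name, had 2.22, 3.02 and 3.47 CPM in KO and 2.49, 3.15 and 3.80 CPM in Ctrl (-0.14, adjusted p = 0.58, edgeR). It overlaps Mlx by 67 exonic bases, Psma4 overlaps AY074887 by 45 and Psmb5 overlaps Mir686 by 109, and reads from such partners cannot be told apart without strand.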

How the data were processed

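RNA of sorted cardiomyocytes was measured in 14 libraries prepared, per the labels' protocols, with SMART-Seq v4 and Nextera XT, which do not mark the strand. The authors deposited whole-number read counts per gene, not normalised. Per the submitters' processing notes, STAR, featureCounts, DESeq2 and DESeq were used with mm10. For tool versions, annotation and strand setting, the sources used here give nothing. The authors' own comparison table was not used.

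Counts of 23337 genes were tested with edgeR 4.0.16 (R 4.3.3): filterByExpr left 11170 genes, libraries were scaled by TMM, and the quasi-likelihood F test (two-sided, no covariates) was adjusted by Benjamini-Hochberg over all of them. Genes with an adjusted p under 0.05 were called. SE is the fold change divided by the square root of F. CPM and RPKM were computed from the counts with TMM library sizes and the exon lengths of the file. Without molecular identifiers, reads are not independent molecules. No pair of same-group libraries was alike enough to be one library deposited again. The fit was tested on simulated counts.

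The genes, lists and tests were chosen with earlier results of these data known. Named were all Psmb5 to Psmb10, Psme, Psmf and Psmg genes, in each other class the 3 smallest p and the extreme folds, and called members of partner lists (up to 4 per direction) with fixed regulators. Other members named were chosen after their values were seen. Not every gene under this rule is reported here. Alternatives were DESeq2 1.42.0, other scalings, no filter, a replicate block, a term for library indices 7 to 10, and leaving libraries out. Coordinates are mm10, and promoter windows are RefSeq GRCm38.p6.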

Additional observations from a re-analysis of the deposited data

Results flagged for a closer look

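The lowest and highest library were set against the rest of their group for each of the 47 genes and for Ryr2 in both groups, 96 groups in all. In 5 of them 1 library stood apart by more than the 95% critical value of Dixon's test for 7 samples, and chance alone flags about 1 in 20 groups. In KO, Psma4 was 121.1 CPM in KO7, with the next highest KO library at 103.5 CPM. The other 4 were high values of Ctrl7: Psma6 was 233.9 CPM (next 194.2), Psmb4 139.1 CPM (next 114.1), Psmd4 148.6 CPM (next 128.6) and Psmg2 62.32 CPM (next 49.04). KO7 and Ctrl7 also held the highest mean core level of their groups. Without Ctrl7 the test called 13 members lower and without KO7 it called 20.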

How the results depend on the processing

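Of the 22 alternatives, DESeq2 size factors, the DESeq2 test, no filter, the replicate block and a term for library indices 7 to 10 gave 12 to 20 members lower and 3 or 4 higher, with Psme4 at -0.0056 under DESeq2. With total counts 3064 genes were higher and 852 lower, members 8 and 4, and the members' median was 0.00051. Under that scaling the sign changed for Psma3 (0.022), Psmb1 (0.042), Psmb5 (0.0032), Psmc1 (0.030), Psmc6 (0.0077), Psmd13 (0.11), Psmd3 (0.00051), Psmd4 (0.031), Psme3 (0.064) and Psmg1 (0.061), because it moves all genes together. Without library indices 7 to 10, 1 member was higher, and Psmb8 (-0.13), Psme4 (-0.035) and Psmg2 (-0.0031) changed sign. Within them, with 2 libraries per group, 689 genes were higher and 777 lower, members 0 and 6, and Psmd7 (-0.12) and Psmd9 (-0.043) changed sign. The cause was not tested. Leaving out each library in turn gave 2 to 5 members higher and 13 to 20 lower, with log2 fold changes from -0.029 to 0.040 for Psme4, -0.050 to 0.28 for Psmb8, -0.068 to 0.0049 for Psmd13, -0.012 to 0.064 for Psmd7 and -0.026 to 0.079 for Psmg2. The calls of 15 of the 19 called members held in all 14 of these fits, and those of Psma4, Psma6, Psmd3 and Psmd11 did not. With the replicate number as a block, 18 members were lower and 4 higher (1848 and 1922 genes), with Psmb9 (0.69, adjusted p = 0.044) and Psmd6 (-0.15, 0.042) among those newly called. Same-numbered libraries correlated between 0.0614 and 0.533 in their deviations, and only replicates 3 and 7 correlated best with their own number, so the numbers were not taken as pairs. The precision was lowest for Psmb8 and Psmb9, with SEs of 0.286 and 0.340, and how far depth sets it was not tested.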
